A study of Mus musculus with 4 samples.

Results

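The cells described here are chondrocytes, the cells of cartilage, in which transcripts of Zfp804b and Dab1 were counted. They were picked by a rule on raw counts of unique molecular identifiers (UMIs, each standing for a captured transcript). A cell had to carry at least 1 Sox9 and 3 Acan UMIs, at least 3 UMIs of Zfp804b and Dab1 together, and fewer than 3 UMIs of the hypertrophy genes Ihh, Panx3, Prkg2 and Col10a1 together. The rule kept 76 cells, named Zfp804b/Dab1 cells below, out of 1286 cells that passed its Sox9 and Acan thresholds and 1757 cells that passed the quality thresholds of more than 750 UMIs, more than 500 genes and under 7% mitochondrial UMIs. The levels of the 8 genes of the rule are therefore its own consequence and are given only as a description.

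The study sorted tdTomato-positive cells of the Prss56 lineage from digested thoracic and lumbar vertebrae of mice and sequenced them with a droplet method that tags the 3′ end of transcripts. All 4 groups carried R26tdTom/tdTom, a reporter that stays on in cells whose ancestors used Cre, and a Cre expressed from the Prss56 locus. Controls were Prss56Cre/+;R26tdTom/tdTom;Nf1+/+ and mutants were Prss56Cre/Cre;R26tdTom/tdTom;Nf1fl/fl, at 3 months and at 12-16 months, with 1 library per genotype and age. Controls thus had 1 Cre allele and mutants 2, so Cre dose and Nf1 genotype cannot be told apart, and the sources used here do not say how many animals went into a library. The sort also removed cells with CD11b, CD31 or CD45 on their surface. Nf1 mRNA was not lower in the Zfp804b/Dab1 cells labelled mutant at 3 months (179 CPM, the count scaled to a class total of 1e6 UMIs) than in those labelled control (144 CPM, ratio 1.24, interval 0.839 to 1.87). The 3′ tags of Nf1 need not fall in its floxed part and so do not check the label, and each library is called by its label below. The tdTomato transcript had only 4 UMIs over the 76 cells, 1 in the 3-month control and 3 in the 3-month mutant library.

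Vertebral endplates are thin plates of cartilage between the intervertebral disc and the bone of the vertebra. Chondrocytes there are held under Sox9, which drives genes of the cartilage matrix such as Acan (the core protein of aggrecan) and Col2a1 (type II collagen). In growing cartilage, chondrocytes that stop dividing enlarge, switch on Runx2 targets, Ihh and Col10a1, and pass into bone formation. Parathyroid hormone-related protein, the product of Pthlh, is made by chondrocytes farther from the bone and holds back this enlargement through its receptor Pth1r, while Indian hedgehog acts through Ptch1 and the Gli factors and keeps Pthlh on. Dab1 is an adaptor protein best known for carrying the reelin signal in migrating neurons, and Zfp804b encodes a zinc finger protein whose role in cartilage is not established.

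With 1 library per group there was no replicate, so no test was made and no p-value is given. For each class of cells the UMIs were summed within a library and divided by the class total to give CPM, a ratio was taken within each library, and intervals are 95% intervals of counting error only. A gene is said to be called where its ratio was at least 2-fold in the same direction in each of the 3 libraries with enough cells. A count of 0 was replaced by 3 UMIs, which gives a lower bound written as at least, and a ratio that rests on 1 to 3 UMIs in either class is followed by its interval in square brackets. Values in a set of 3 follow the order 3-month control, 3-month mutant and 12-16-month mutant, because the 12-16-month control library held only 1 Zfp804b/Dab1 cell.

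The 76 cells were unevenly spread over the libraries, and 52 of them came from the 3-month mutant library. They made up 16 of 562 Sox9 and Acan cells in the 3-month control library (2.85%, exact binomial interval 1.64 to 4.58%) and 52 of 377 in the 3-month mutant library (13.8%, interval 10.5 to 17.7%). There was 1 of 89 in the 12-16-month control library (1.12%, interval 0.0284 to 6.1%) and there were 7 of 258 in the 12-16-month mutant library (2.71%, interval 1.1 to 5.51%). The 3-month mutant share lay above the other 3, whose intervals overlapped. When every cell was thinned to 5000 UMIs and shallower cells were left out, the shares became 2.64%, 20.8%, 2.01% and 4.42% in the same order, with 115, 36, 21 and 102 cells left out. A share of sorted cells depends on digestion and sorting as well as on the tissue, and with 1 library per label a difference between libraries cannot be told apart from one between labels.

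Depth was similar to that of most other cartilage cells or somewhat higher. The median UMI count of the Zfp804b/Dab1 cells was 12081 in the 3-month control, 13712.5 in the 3-month mutant and 9434 in the 12-16-month mutant library, and the lone 12-16-month control cell had 27429. Their summed UMIs were 228376, 727491, 27429 and 92697 in the 4 libraries. Among the 893 Sox9 and Acan cells with fewer than 3 Zfp804b and Dab1 UMIs and fewer than 3 hypertrophy UMIs, called remaining cells here, the median was 12054, 10405.5, 9287 and 6942 UMIs. The mitochondrial share had medians of 1.61%, 2.07%, 1.63% and 2.04% in the Zfp804b/Dab1 cells. No cell barcode was shared between libraries.

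The cells near the thresholds show how sharp the selection was. Only 3 members sat at the minimum of 3 Zfp804b and Dab1 UMIs and 5 at 4, whereas 27 had more than 20 and the highest had 303, with a median of 13. Just outside, 3 of the remaining cells had 2 such UMIs, 13 had 1 and 877 had none. On the hypertrophy side the boundary was not empty. Of the 76 members, 33 had no UMI of Ihh, Panx3, Prkg2 or Col10a1, 24 had 1 and 19 had 2, and 13 cells with enough Zfp804b and Dab1 stood just outside with 3. Of all 221 Sox9 and Acan cells with at least 3 Zfp804b and Dab1 UMIs, 145 had 3 or more UMIs of the hypertrophy genes, so the 2 transcripts were not confined to the cells described here. These 145 cells are called Zfp804b/Dab1 hypertrophic-gate cells, and the 317 Sox9 and Acan cells with 3 or more hypertrophy UMIs, whatever their Zfp804b and Dab1, are called hypertrophic-gate cells.

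**Figure D1:**
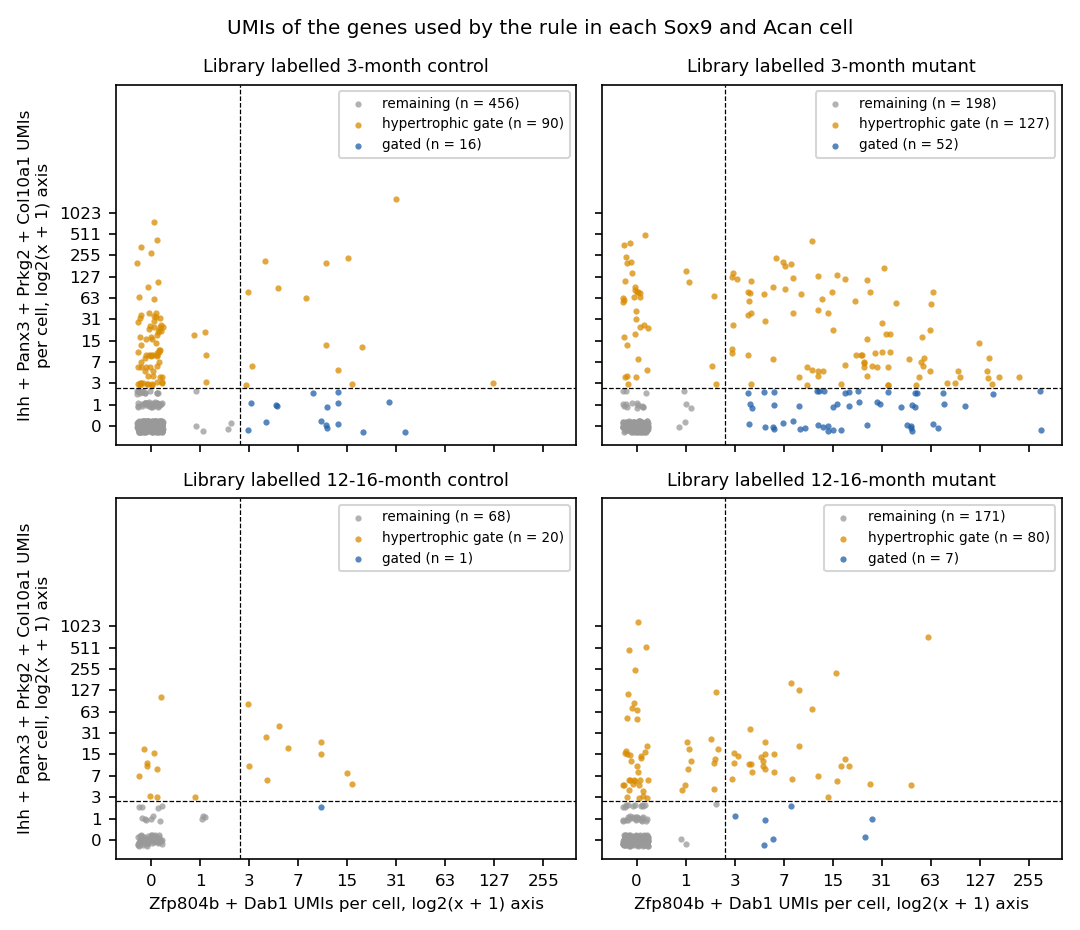
UMIs of Zfp804b and Dab1 together (horizontal) against UMIs of Ihh, Panx3, Prkg2 and Col10a1 together (vertical) in each Sox9 and Acan cell of the 4 libraries, on log2(x + 1) axes with points jittered. Dashed lines mark the thresholds of 3 UMIs. Blue points are the Zfp804b/Dab1 cells (16, 52, 1 and 7), orange points the hypertrophic-gate cells and gray points the remaining cells, most of which sit at 0 on both axes.

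Zfp804b and Dab1 were not always counted in the same cell. Both were counted in 46 of the 76 cells, Dab1 alone in 24 and Zfp804b alone in 6. Zfp804b ran from 0 to 294 UMIs per cell with a median of 6, and Dab1 from 0 to 45 with a median of 5. In the same order of the 4 libraries as above, Zfp804b was at 534, 2118, 292 and 658 CPM and Dab1 at 311, 680.4, 72.9 and 183 CPM, and in the remaining cells both were below 3 CPM. Sox9 was at 1462, 1388, 2406 and 841 CPM and Acan at 4453, 2775, 3792 and 2837 CPM. Zfp804b lies on chr5:6769010-7344756 (minus strand) and Dab1 on chr4:103619359-104744844 (plus strand) of mm10, so both are long genes. The counts per gene do not say whether reads came from exons or introns.

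Unc5c, a receptor for netrins in axon guidance, and Etl4, a gene also known as sickle tail that intervertebral discs need to form, were the markers proposed for these cells beside the genes of the rule. Unc5c (chr3:141465216-141834924, plus strand) was counted in 59 of 76 cells, Etl4 (chr2:19909780-20810713, plus strand) in 58, both in 48 and neither in 7. Unc5c was at 2623, 859 and 2265 CPM in the Zfp804b/Dab1 cells and 43.8, 81 and 27.4 CPM in the remaining cells, a ratio of 59.8 (51.8 to 69.2), 10.6 (8.99 to 12.6) and 82.8 (58.2 to 121). All 3 libraries thus stood well above their remaining cells, although a single cell held 44.6% of the Unc5c UMIs in the 3-month control library. In the 12-16-month mutant library a cell that Scrublet, a doublet caller, marked as a doublet held 91 of 210 Unc5c and 25 of 38 Etl4 UMIs, and both genes stayed called without the cells so marked. The 2 cells so marked in that library also held 45 of its 61 Zfp804b UMIs. Etl4 was at 867, 914 and 409.9 CPM against 44, 77.9 and 23.7 CPM, or 19.7, 11.7 and 17.3 times higher. Neither marker set these cells apart from the Zfp804b/Dab1 hypertrophic-gate cells. There the ratio was 2.06, 0.407 and 0.576 for Unc5c and 1.42, 1.11 and 0.600 for Etl4, in no common direction. Against all 1210 other Sox9 and Acan cells together neither gene was called, with ratios of 14.3, 0.783 and 1.65 for Unc5c and 9.19, 2.28 and 1.57 for Etl4. The label markers were thus shared by 2 kinds of cells that differ in hypertrophy genes. No measurement here places a cell in the endplate, and the cells are named by their genes for that reason.

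More genes were called against the remaining cells than against the cells with hypertrophy genes. Of 10585 genes with at least 100 UMIs over the Sox9 and Acan cells, other than those of the rule, 131 were called higher than in all other Sox9 and Acan cells (1.24%) and 155 lower (1.46%). Against the remaining cells 406 were called higher (3.84%) and 254 lower (2.4%). Against the hypertrophic-gate cells 82 were called higher (0.775%) and 70 lower (0.661%), and against the Zfp804b/Dab1 hypertrophic-gate cells 79 were called higher (0.746%) and 50 lower (0.472%). In the last comparison 8689 of the genes had a ratio in all 3 libraries, against 10297 in the one before and 10366 against the remaining cells, so fewer could be called. The balance of higher and lower genes depended on the scale. With TMM factors, which set the scale by the bulk of genes, ratios against the remaining cells were lower by 0.36, 0.30 and 0.51 on the log2 scale, and 256 genes were called higher and 464 lower. The same factors gave 60 higher and 304 lower against all other Sox9 and Acan cells, 40 and 119 against the hypertrophic-gate cells and 57 and 83 against the Zfp804b/Dab1 hypertrophic-gate cells. Genes called higher than in the remaining cells spanned a median of 92.9 kb in the genome, against 25.2 kb for those called lower and 26.5 kb for all genes tested. Of 3 nuclear RNAs, Neat1 and Kcnq1ot1 were called higher than in the remaining cells (2.57, 2.84 and 2.27 and 2.43, 2.22 and 2.61 times) and neither was with TMM factors or without called doublets. Against cells matched on total UMIs Neat1 alone was. At 5000 UMIs per cell a median of 2213.5 genes were detected in the Zfp804b/Dab1 cells and 2020 in the remaining cells. The part of intron reads and RNA quality in these differences was not tested.

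Among the genes that most exceeded all other Sox9 and Acan cells were secreted proteins, transcription factors and neural surface proteins. Pthlh, the gene of parathyroid hormone-related protein on chr6:147252101-147264183 (minus strand), was at 311, 195 and 269.7 CPM against 21.8, 10.9 and 13.4 CPM in the other cells. Its ratio was 14.3 (10.7 to 18.9), 17.8 (13 to 24.8) and 20.2 (11.7 to 34.4), so the 3 libraries gave close values. Pthlh was counted in 37 of the 76 cells and the rest had none, with a highest count of 25 UMIs. After thinning to 5000 UMIs it was detected in 38.9% of these cells and 4.98% of remaining cells (48.7% and 7.73% without thinning).

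Other secreted products followed. Apod, a lipid carrier of the lipocalin family, was at 346, 1005 and 324 CPM against 11.7, 27 and 27.8 CPM, 29.6, 37.3 and 11.6 times higher. Efemp1, the extracellular matrix protein fibulin-3, was at 657, 470.1 and 119 CPM against 13.4, 23.3 and 9.39 CPM and Spon1, the matrix protein spondin 1, at 236, 249 and 97.1 CPM against 10.6, 11.5 and 9.39 CPM. Bmp3, an unusual member of the bone morphogenetic proteins that restrains the others, was at 254, 551 and 97.1 CPM against 13.4, 27 and 3.25 CPM, 18.9, 20.4 and 29.9 times higher. In each of these genes all 3 libraries were above their other cells by more than 10-fold.

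The transcription factors among the leading genes were Lef1, which acts at the end of the Wnt pathway, Ehf, an ETS factor of epithelia, and Pou3f3, a POU factor of the nervous system and kidney. Lef1 was at 591, 364 and 529 CPM against 15.3, 14.7 and 41.2 CPM and was counted in 57 of 76 cells. After thinning it was detected in 61.7% of these cells and 1.21% of remaining cells. Ehf was at 87.6, 143 and 53.9 CPM against 3.49, 1.95 and 1.08 CPM and Pou3f3 at 101, 143 and 53.9 CPM against 7.35, 6.25 and 4.33 CPM. The 12-16-month mutant values of Ehf and Pou3f3 rest on 5 UMIs each. The largest mean ratio among called genes was that of Dscaml1, a cell adhesion molecule of neurons, at 193, 79.7 and 43.2 CPM against 2.12, 0.586 and 0.722 CPM, or 91, 136 [44.3 to 679] and 59.8 [8.57 to 661] times higher. The other leading genes were St6galnac5, a sialyltransferase (114, 13.8 and 41.8 times higher), Tmcc3, a coiled-coil membrane protein (11.2, 9.59 and 29.9), Nsg1, a neuronal endosome protein (18.5, 3.28 and 39.8 [6.74 to 272]), Chl1, a neural adhesion molecule (23.4, 7.33 and 10.2), Luzp2, a leucine zipper protein (29.9, 9.48 and 6.02), and Slc35f1, a transporter-like protein (50.5, 5.7 and 5.83). All 15 of these leading genes stayed called with TMM factors, 12 did without the cells that Scrublet called doublets, and 10 did when the UMIs were split at random into 2 sets, with the rule applied to one set and the ratios taken on the other. The genes lost with the split UMIs were Dscaml1, Ehf, Pou3f3, Tmcc3 and Nsg1, and those lost without called doublets St6galnac5, Tmcc3 and Nsg1. Dscaml1 was also not called with at least 5 Zfp804b and Dab1 UMIs per cell or against cells matched on total UMIs. Without either 3-month library it fell below the minimum of 100 UMIs, so its rank rests on few counts. Pou3f3 was lost with at least 5 such UMIs and against the matched cells, Slc35f1 in the former setting and Nsg1 in the latter. Without the 3-month mutant library Ehf, St6galnac5, Nsg1 and Chl1 were not called either, nor was Chl1 without the 12-16-month mutant library.

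Genes of the disc and of the surface of cartilage were low. Prg4, which encodes the lubricant lubricin, was at 215, 12.4 and 496 CPM in the Zfp804b/Dab1 cells and 21462, 10906 and 19557 CPM in the other Sox9 and Acan cells. The 3 libraries all stood below their other cells by more than 10-fold. Cilp, a protein of the intermediate layer of cartilage, was at 683, 9.62 and 43.2 CPM against 6779, 3133 and 4348 CPM, and Gas1, a membrane protein that binds hedgehog ligands, at 459.8, 8.25 and 10.8 CPM against 2418, 1373 and 1339.7 CPM. The higher values among the 3 libraries came from few cells. A single 3-month control cell that Scrublet called a doublet held 47 of 49 Prg4, 154 of 156 Cilp and 104 of 105 Gas1 UMIs, and another such cell held 44 of the 46 Prg4 UMIs of the 12-16-month mutant library. Without called doublets Prg4 was at 10.1, 12.6 and 29.6 CPM, Cilp at 10.1, 9.82 and 29.6 CPM and Gas1 at 5.06, 8.42 and 14.8 CPM, all from 9 UMIs or fewer in a library.

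The other leading low genes included Vcan, the large proteoglycan versican (7.08, 129.9 and 37.1 times lower), and Abi3bp, a matrix-binding protein (5.92, 119 and 24.5). The called doublet held 71 of 94 Vcan and 71 of 83 Abi3bp UMIs of the 3-month control library, where the levels without it were 116 and 60.7 CPM in place of 412 and 363 CPM. Sbsn, Dmkn and Slurp1 are best known as secreted products of skin epithelium. Sbsn was 9.14, 99.4 and 117 [21 to 4621] times lower. Dmkn was 22.4, at least 177 and at least 17.1 times lower. For Slurp1 the values were 16.6, 260.4 [46.7 to 10292] and at least 17.5 times. Mt1, a metallothionein that binds zinc and copper, was at 43.8, 38.5 and 21.6 CPM against 705, 588 and 1245 CPM, and S100a4, a calcium-binding protein, at 4.38, 0 and 75.5 CPM against 395, 186 and 227 CPM. The called doublet held 50 of 51 Sbsn, 9 of 9 Dmkn, 19 of 20 Slurp1 and 10 of 10 Mt1 UMIs of the 3-month control library. All 10 stayed called without called doublets and with TMM factors. Of 9 disc chondrocyte markers 6 were called lower than in the remaining cells and none higher, beside 2.4% and 3.84% over all genes, namely Adamtsl2, Meox2, Prg4, Smoc2, Cilp2 and Cilp. The list was chosen with earlier results of these same data known, so its calls and median are a description and no independent evidence. With TMM factors 8 of the 9 were called lower, and without called doublets 6, with Chrdl2 in place of Meox2. With separate random sets of the UMIs 4 were, and Adamtsl2 and Meox2 lost their calls. The median log2 ratio of the 9 markers was -2.42, against 0.19 over all genes tested. Smoc2, a calcium-binding matrix protein, was at 43.8, 38.5 and 216 CPM against 433, 389 and 702 CPM. Cd24a, by which the study marks disc chondrocytes, was at 293, 119.6 and 313 CPM against 521, 469.9 and 442 CPM, below in each library and called lower with TMM factors alone. Sfrp5, a Wnt antagonist, was the exception in the list, with ratios of 1.5, 2.05 and 0.569 in no common direction.

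**Figure D2:**
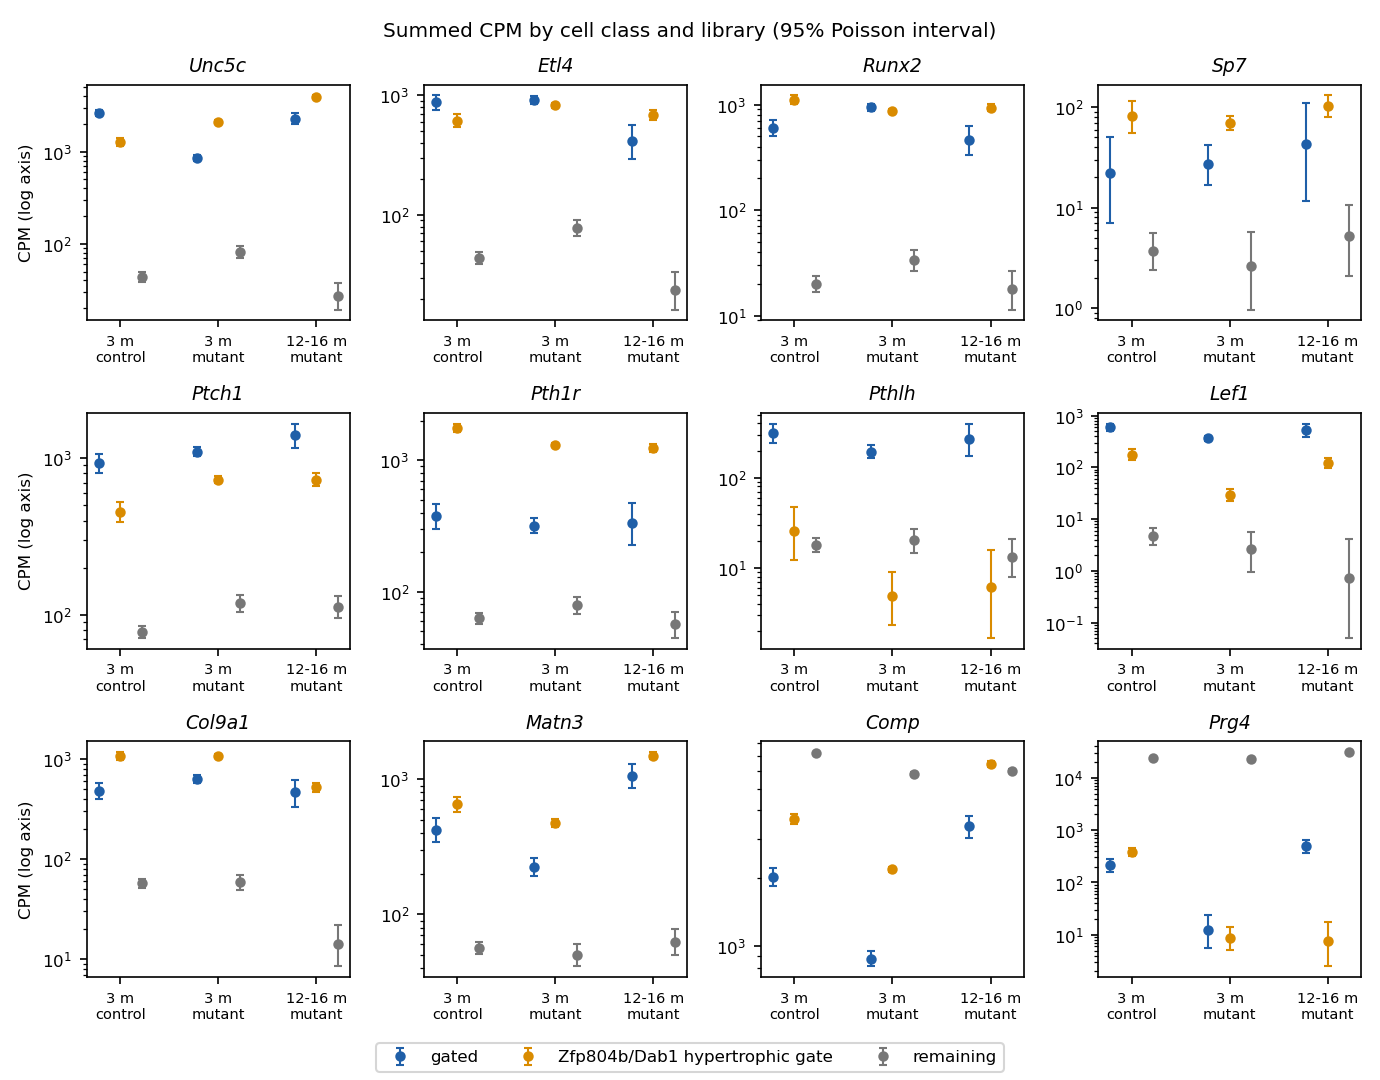
CPM of 12 genes in the Zfp804b/Dab1 cells (gated), the Zfp804b/Dab1 hypertrophic-gate cells and the remaining cells of 3 libraries, with 95% Poisson intervals of counting error, on log axes that differ between panels. Unc5c, Etl4 and Runx2 are high in both Zfp804b/Dab1 classes, Pthlh and Lef1 are highest in the gated cells, and Prg4 is high in the remaining cells.

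Genes of the minor cartilage collagens were called higher, whereas type II collagen fell short of a call. Of 17 measured genes of the matrix list, 6 were called higher than in the remaining cells and none lower, beside 3.84% and 2.4% over all genes, with a median log2 ratio of 1.11 beside 0.19 over all genes. The 6 were Col9a1, Col9a2 and Col9a3, the chains of type IX collagen, Col11a1 and Col11a2, chains of type XI collagen, and Matn3, the linker protein matrilin-3. Col9a1 was at 482, 634 and 464 CPM against 57.6, 58.7 and 14 CPM, 8.37, 10.8 and 33 times higher. Col11a1 was 2.21, 3.3 and 2.95 times higher and lost its call with TMM factors. Matn3 was at 425, 225 and 1068 CPM against 56.2, 49.9 and 62.8 CPM, but 65 of its 97 UMIs in the 3-month control and 78 of its 99 in the 12-16-month mutant library came from 1 cell each.

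Col2a1 was at 5644, 2863 and 6678 CPM against 2950.0, 1704 and 1649 CPM. It was counted in 16 of 16, 51 of 52 and 7 of 7 cells of these libraries, and its ratio of 1.91, 1.68 and 4.05 did not reach 2 in both 3-month libraries. Comp, cartilage oligomeric matrix protein, went the other way, at 2032, 878 and 3398 CPM against 7201, 5799 and 5982 CPM. It was not called here (3.54, 6.6 and 1.76 times lower), was called lower with TMM factors, and 245 of its 464 UMIs in the 3-month control library were in the called doublet. Against all other Sox9 and Acan cells no gene of the matrix list was called in either direction, with TMM factors Comp was called lower and without called doublets Comp and Chad were. Chad was then also lower than in the remaining cells. Of 16 genes for the synthesis of glycosaminoglycans, the sugar chains of aggrecan, Chst11 and Papss2 were called higher than in the remaining cells and Csgalnact2 and Chst3 lower, beside 3.84% and 2.4% over all genes, and Papss2 lost its call with TMM factors and against cells matched on total UMIs.

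Some factors that drive hypertrophy and bone formation were high, Runx2 and Runx3 among them, and most measured factors were not called. Runx2, the factor that starts osteoblast and hypertrophic differentiation (chr17:44495987-44814797, minus strand), was counted in 72 of 76 cells, and after thinning in 87.7% of these cells and 5.8% of remaining cells. It was at 604, 947 and 464 CPM against 20.1, 33.7 and 17.7 CPM in the remaining cells, a ratio of 30 (23.4 to 38.5), 28.1 (22.2 to 36) and 26.1 (15.5 to 45). The ratios of the 3 libraries lay within each other's intervals. Runx3, its relative in chondrocyte maturation, was at 381, 437 and 313 CPM against 12.2, 21.9 and 6.65 CPM. Sp7, the osteoblast factor osterix, was at 21.9, 27.5 and 43.2 CPM against 3.75, 2.63 and 5.17 CPM, from 5, 20 and 4 UMIs. Among the osteogenic factors Runx2 and Sp7 were called higher and Zfp521 lower, also with TMM factors and without called doublets, and against cells matched on total UMIs, or when the rule and the ratios used separate random sets of the UMIs, Sp7 was not called. Of 15 chondrocyte factors outside the rule, Runx3 was called higher and Nfib and Barx1 lower, and of 7 bone matrix genes Col1a2 was lower, beside 3.84% higher and 2.4% lower over all genes. Barx1 and Col1a2 lost their calls against cells matched on total UMIs and with separate random sets of the UMIs. Of 11 measured hypertrophy and endochondral genes outside the rule, Pth1r and Fgfr3 were called higher and Spp1, the gene of osteopontin, lower, at 241, 50.9 and 1489 CPM against 2118, 2734 and 4525 CPM. A called doublet held 85 of the 138 Spp1 UMIs of the 12-16-month mutant library, which was at 783 CPM without it. Of all called genes Lef1 had the largest mean ratio to the remaining cells, at 591, 364 and 529 CPM against 4.68, 2.63 and 0.739 CPM, or 126, 139 and 715 [122 to 28811] times higher.

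Of 8 measured genes of the hedgehog and parathyroid hormone-related protein list, Pthlh, Pth1r and Ptch1 were called higher than in the remaining cells, beside 3.84% over all genes. None was called lower, with and without TMM factors, and the median log2 ratio was 1.55 beside 0.19 over all genes. These are summed levels, and 39 of the 76 cells had no Pthlh UMI. Pthlh was at 311, 195 and 269.7 CPM against 17.9, 20.1 and 13.3 CPM, 17.3 (12.7 to 23.5), 9.69 (6.9 to 13.8) and 20.3 (10.6 to 39.4) times higher. Pth1r, its receptor, was at 377, 318 and 334 CPM against 62.4, 78.4 and 56.2 CPM, and Ptch1, the hedgehog receptor that is also a target of the pathway, at 928, 1102 and 1402 CPM against 77.9, 119 and 113 CPM. Ptch1 was also called higher than in all other Sox9 and Acan cells, at 7.7, 2.86 and 5.08 times their level. Gli1, a second hedgehog target, was 1.66, 2.07 and 4.26 times the remaining level, from 7, 37 and 7 UMIs, and was not called. Hhip, a decoy receptor for hedgehog, was 4.13, 4.3 and 1.1 times and Gli2, a hedgehog effector, 3.19, 3.98 and 1.16 times the remaining level, both short of a call in the 12-16-month mutant library. Ihh, the ligand, is a gene of the rule and had 1 UMI in the 76 cells.

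The calls of 3 further lists against the remaining cells stand beside 3.84% higher and 2.4% lower over all genes. Of 17 immediate early and stress genes Atf3 was called lower, and the called doublet held 37 of its 66 UMIs in the 3-month control library. Without called doublets Socs3 was lower as well, and with TMM factors Socs3 and Lcn2. Of 8 glucocorticoid targets Errfi1 and Dusp1 were lower. Of 10 matrix proteases and inhibitors Mmp2 was higher and Adamts6 and Timp1 lower. Mmp2 lost its call without called doublets, against cells matched on total UMIs and with separate random sets of the UMIs, and Timp1 lost its call against the matched cells.

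Growth factor genes outside that pathway went both ways. The TGF-beta and BMP list of 24 measured genes leaves out Bmp3. Bmp7, Gdf10 and Tgfbr2 of this list were called higher than in the remaining cells and Bmp2, Bmp6 and Bambi lower. With TMM factors 2 were called higher and 7 lower. Bmp7, a bone morphogenetic protein, was at 87.6, 71.5 and 43.2 CPM against 1.72, 2.19 and 0.739 CPM. It lost its call without called doublets and against cells matched on total UMIs. Gdf10 lost its call against the matched cells, Gdf10, Bmp2 and Bambi with separate random sets of the UMIs, and Tgfbr2 with TMM factors. A called doublet held 13 of the 21 Gdf10 UMIs of the 12-16-month mutant library. Bmp6 was at 4.38, 0 and 0 CPM against 294, 421 and 185 CPM, 67.1 [12 to 2652], at least 102 and at least 5.71 times lower. Fgfr3, the receptor that slows chondrocyte division, was at 377, 254 and 248 CPM against 117, 95 and 91.7 CPM, and lost its call with TMM factors and when the rule and the ratios used separate random sets of the UMIs. Fgfr2 was at 193, 246 and 173 CPM against 393, 532 and 437 CPM and was called lower, a call lost against cells matched on total UMIs and with separate random sets of the UMIs. None of 12 measured brakes of RAS and ERK signalling was called, which at 3.84% higher and 2.4% lower over all genes says nothing particular of them.

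Some genes of axon guidance and neural adhesion were high as well. Of 24 measured genes of that list 17 were not called, whereas Unc5c, Robo2, Sema5a, Epha3, Epha4 and Ncam1 were called higher than in the remaining cells, also with TMM factors and without called doublets, and Ntn4 was lower. Unc5c was also a marker proposed for these cells, so its call here is no independent evidence. Over all genes 3.84% were called higher and 2.4% lower. The median log2 ratio of the list was 0.91 beside 0.19 over all genes. Epha4, an ephrin receptor, was at 201, 144 and 75.5 CPM against 5.15, 8.76 and 5.17 CPM, and Sema5a, a semaphorin, at 197, 143 and 86.3 CPM against 3.75, 4.82 and 8.13 CPM. Robo2, a receptor for Slit proteins, was at 17.5, 45.4 and 64.7 CPM against 1.87, 1.31 and 0 CPM. Ntn4, a secreted netrin, was at 21.9, 37.1 and 21.6 CPM against 172, 492 and 404 CPM, 7.88, 13.3 and 18.7 [5.16 to 155] times lower. Against an equal number of cells matched on total UMIs, 4 genes of this list were called higher and 2 lower, and Robo2 and Epha3 lost their calls. With separate random sets of the UMIs Robo2 and Sema5a lost theirs and Sema3c was called higher.

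Beside Dab1 itself, none of 8 measured genes of the reelin pathway was called, a count near the share over all genes, and Reln, the ligand, had 0, 1 and 0 UMIs in the 3 libraries. Of 11 ion channel genes Kcnma1, a large-conductance potassium channel, and Cacna2d1, a calcium channel subunit, were called higher and Piezo1, a mechanosensitive channel, lower, beside 3.84% and 2.4% over all genes, and none of them was called against cells matched on total UMIs. Kcnma1 was 2.88, 3.5 and 2.05 times the remaining level and lost its call with TMM factors and without called doublets. Other leading genes against the remaining cells were Trpm3, a cation channel (77.5, 56.8 and 87.6 times higher), Lama2, a laminin chain of basement membranes (36.8, 61.8 and 69.7), and Tenm2, a teneurin adhesion protein (61.7, 22.7 and 96.3). Called doublets held 26 of the 33 Tenm2 UMIs of the 12-16-month mutant library. Trpm3 was at 459.8, 796 and 259 CPM against 5.93, 14 and 2.96 CPM.

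**Figure D3:**
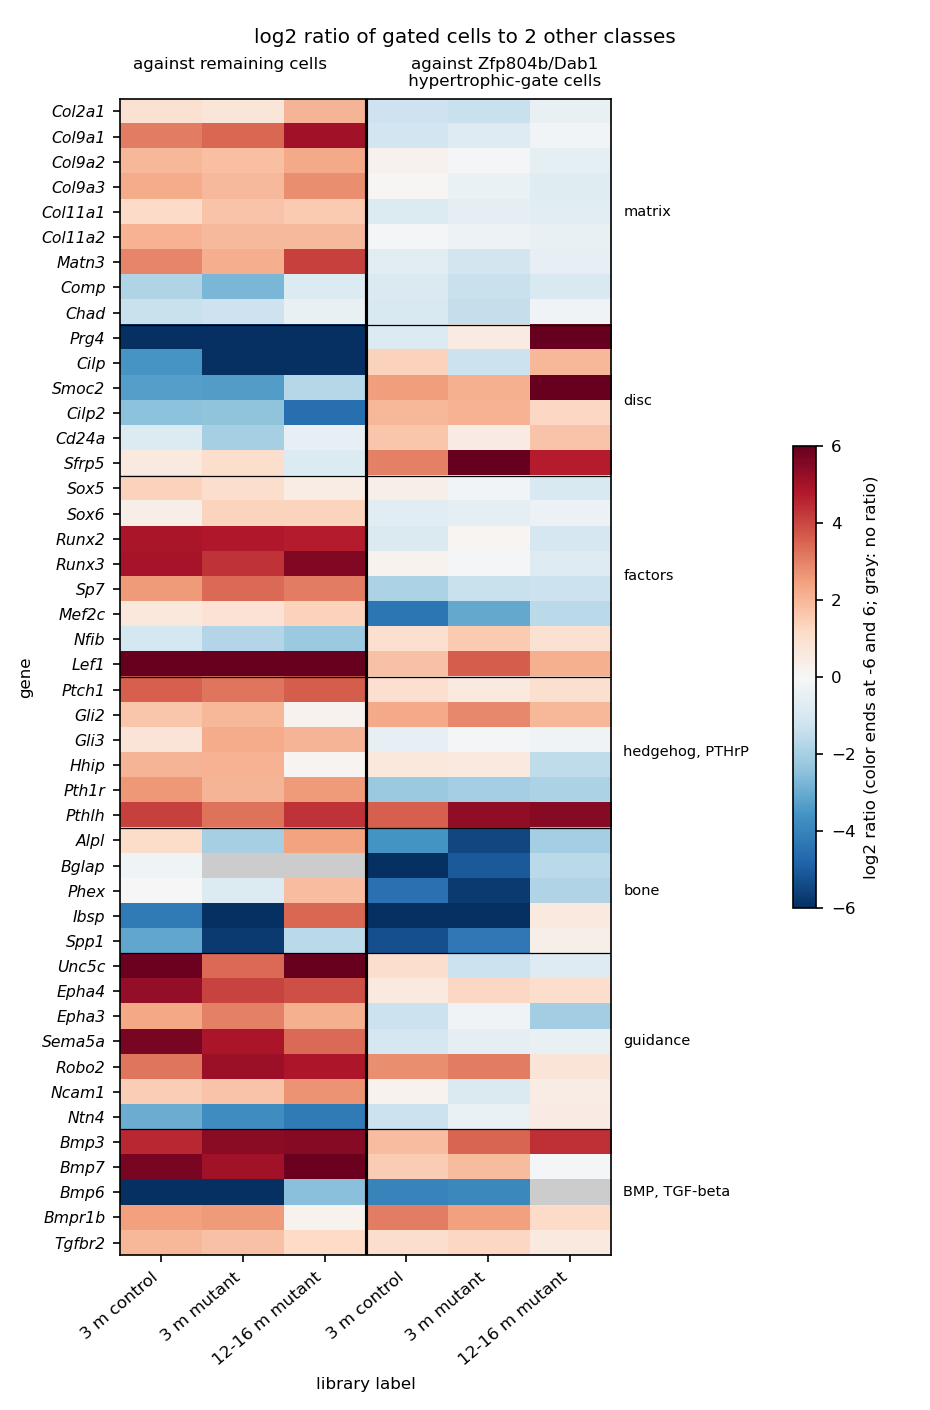
Log2 ratios of the Zfp804b/Dab1 cells to the remaining cells and to the Zfp804b/Dab1 hypertrophic-gate cells in the 3 libraries, with genes grouped by role. Red marks genes higher and blue genes lower in the Zfp804b/Dab1 cells, the color scale ends at -6 and 6, and gray marks no ratio. Runx2 and Runx3 are red against the remaining cells and pale against the hypertrophic-gate cells, and Pthlh is red in both.

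The comparison with the 145 Zfp804b/Dab1 hypertrophic-gate cells sets apart cells that share the Zfp804b and Dab1 threshold and differ in the hypertrophy genes. It was chosen after earlier values were seen. Those cells were deeper, with median UMI counts of 26216, 21393.5 and 21104, and a rule on raw UMIs picks deeper cells into a class that needs more UMIs. Pthlh was at 311, 195 and 269.7 CPM in the Zfp804b/Dab1 cells and 25.5, 4.86 and 6.11 CPM in the hypertrophic-gate cells, 12.2 (6.25 to 26.5), 40.1 (21.2 to 85.5) and 44.1 (15.2 to 175) times higher. Its receptor gene Pth1r went the other way, at 377, 318 and 334 CPM against 1764, 1311 and 1243 CPM, 4.68, 4.13 and 3.72 times lower. Ligand and receptor were thus ordered oppositely in the same 3 libraries, and both calls held with TMM factors and without called doublets.

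Of the factors that both classes share, Runx2 was at 604, 947 and 464 CPM against 1115, 868 and 935 CPM and Runx3 at 381, 437 and 313 CPM against 329, 477 and 527 CPM. Neither had a common direction over the libraries. Sp7 was 3.73, 2.55 and 2.41 times lower and lost its call without called doublets and when the rule and the ratios used separate random sets of the UMIs. Mef2c, a factor of chondrocyte hypertrophy, was at 92, 115 and 194 CPM against 1886, 986 and 591 CPM, 20.5, 8.54 and 3.04 times lower. Lef1 was 3.36, 12.5 and 4.33 times and Gli2 4.87, 7.35 and 3.99 times higher. Ptch1 was 2.04, 1.51 and 1.92 times the level there and was not called.

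Several mineralization genes were lower than in the hypertrophic-gate cells. Of 11 hypertrophy and endochondral genes outside the rule, Alpl and Pth1r were called lower and none higher, and of 7 bone matrix genes Bglap and Phex were lower and Omd higher, beside 0.746% called higher and 0.472% lower over all genes. Alpl, the phosphatase that frees phosphate for mineral, was at 65.7, 17.9 and 162 CPM against 796, 778 and 675 CPM, 12.1, 43.6 and 4.17 times lower. Bglap, the gene of osteocalcin, was at 0, 4.12 and 0 CPM against 1263, 136 and 99.3 CPM, and reads of its near-identical neighbors Bglap2 and Bglap3 may be split among the copies. Phex, an enzyme that controls phosphate, was at least 22.1, 53.6 [14.7 to 445] and 3.54 [0.579 to 145] times lower and lost its call without called doublets and with separate random sets of the UMIs. Ibsp, bone sialoprotein, had 0 and 1 UMI in the 3-month control and mutant cells, against 2118 and 1681 CPM in the hypertrophic-gate cells. In the 12-16-month mutant library it had 89 UMIs, 86 of them in a cell that Scrublet called a doublet, and without called doublets Ibsp was called lower. Of the leading lower genes, Ppa1, an inorganic pyrophosphatase, was at 48.2, 44 and 399 CPM against 2596, 1970.2 and 2131 CPM. Called doublets held 27 of its 37 UMIs in the 12-16-month mutant library, which was at 148 CPM without them, and its call was lost with separate random sets of the UMIs. Hpgd, an enzyme that breaks down prostaglandins, was at 0, 22 and 10.8 CPM against 896, 255 and 157 CPM. Grb14, an adaptor of insulin signalling, was 75.8 [13.4 to 3016], 11.3 and 8.92 [1.54 to 358] times lower, Ttll3, a tubulin glycylase, 48.4 [8.45 to 1934], 22.6 and at least 2.22, not called without called doublets, and Bmp8a, a bone morphogenetic protein, at least 11.3, 21.1 [7.11 to 103] and 9.06 [1.57 to 363].

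The genes higher than in the hypertrophic-gate cells included Sfrp5, the Wnt antagonist of the disc list, at 315, 324 and 119 CPM against 38.3, 4.38 and 0 CPM. Smoc2, of the same list, was at 43.8, 38.5 and 216 CPM against 0, 8.76 and 1.53 CPM, so it stood between the hypertrophic-gate and the remaining cells. Omd, the bone matrix proteoglycan osteomodulin, was at 442, 1273 and 1003 CPM against 140.4, 435 and 174 CPM. Called doublets held 67 of the 93 Omd and 8 of the 10 Sparcl1 UMIs of the 12-16-month mutant library, where Omd was at 384 CPM without them and the call of Sparcl1 was lost. Igfbp7, a binding protein of insulin-like growth factors, was 2.83, 3.57 and 4.49 times and Bmpr1b, a receptor for bone morphogenetic proteins, 8.35, 5.45 and 2.21 times higher, the latter not called with TMM factors. Smoc2, Igfbp7 and Bmpr1b all lost their calls with separate random sets of the UMIs. Spon1 was 18.5, 23.2 and at least 21.2 times, Ehf 34.3 [5.49 to 1422], 36.7 and at least 11.8 times and Pou3f3 13.2 [3.97 to 68.4], 21 and 35.3 [3.95 to 1670.3] times higher. Dscaml1 was 6.86, 164 [28.3 to 6584] and at least 9.42 times higher, and Sparcl1, a matrix glycoprotein, 6.86 [1.85 to 37.9], 90.4 [15.1 to 3682] and at least 23.5 times. Of 17 matrix genes Epyc, the proteoglycan epiphycan, was called lower. With TMM factors Epyc and Comp were, without called doublets Comp in place of Epyc, and with separate random sets of the UMIs none. Col2a1 was at 13213, 7270.1 and 9085 CPM in the hypertrophic-gate cells, 2.34, 2.54 and 1.36 times above the Zfp804b/Dab1 cells. None of the 24 guidance genes was called, a count near the 0.746% higher and 0.472% lower over all genes, and without called doublets Robo2 was higher and with separate random sets of the UMIs Sema5a lower. Of the 8 leading genes in each direction, 3 of those higher and 6 of those lower stayed called when the rule and the ratios used separate random sets of the UMIs.

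Against all 317 hypertrophic-gate cells the leading higher genes were Dscaml1, Ehf, Pou3f3, St6galnac5, Pthlh, Tmcc3, Bmp3 and Apod, and the leading lower genes Prg4, Ppa1, Hpgd, Slurp1, Grb14, Bglap, Cilp and Gas1. Pthlh was 8.41, 55.3 and 20.1 times higher there. With separate random sets of the UMIs 4 of the 8 higher genes stayed called, and without called doublets 6, St6galnac5 and Tmcc3 being lost. Of the lower genes Bglap was lost in both settings and with at least 5 Zfp804b and Dab1 UMIs per cell.

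The cells next to each threshold of the rule are given here as a description, pooled over libraries. The 19 Zfp804b/Dab1 cells with 2 hypertrophy UMIs had 139 CPM of Pthlh and 133 CPM of Lef1, and the 13 cells just outside with 3 had 29.1 CPM of Pthlh and 121 CPM of Lef1. Unc5c was at 1373 and 2157 CPM in these sets. At the other threshold, the 8 members with 3 or 4 Zfp804b and Dab1 UMIs had 871 CPM of Runx2, 565 CPM of Lef1 and 28.7 CPM of Prg4. The 16 remaining cells with 1 or 2 such UMIs had 170 CPM of Runx2, 42.5 CPM of Lef1 and 6468 CPM of Prg4, but 629 CPM of Unc5c, close to the 699 CPM of those members.

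Markers of immune, endothelial, mural, notochordal and erythroid cells were at or near 0 in the Zfp804b/Dab1 cells, and those of fibroblasts and tendon were not. The 7 immune markers summed to 1 UMI over all 76 cells, which was S100a9, and Ptprc was at 0. The 4 endothelial markers also summed to 1 UMI, the 4 mural markers to 12 (10 of them Acta2) and the 8 nucleus pulposus and notochord markers to 2. Marrow stromal markers had 28 UMIs in the 3-month mutant and 4 in the 12-16-month mutant library, mostly Cxcl12 (22 and 4), and erythroid markers 2 UMIs in each 3-month library, all Hbb-bs. The glial list was led by S100b, which cartilage expresses too, with 28, 38, 9 and 14 of the list's 31, 60, 9 and 16 UMIs in the 4 libraries, at 123, 52.2 and 151 CPM against 571, 519 and 662 CPM in the remaining cells. Of 6 measured fibroblast markers Dcn, Gsn and Col5a1 were called lower and none higher, beside 2.4% and 3.84% over all genes, and Col5a1 lost its call without called doublets and with separate random sets of the UMIs. The list of 8 fibroblast markers summed to 955, 1042 and 2071 CPM, led by Gsn. Dcn, the small proteoglycan decorin, was at 215, 269 and 723 CPM against 6276, 5428 and 17934 CPM. Called doublets held 65 of its 67 UMIs in the 12-16-month mutant library, which was at 29.6 CPM without them. Of 5 measured tendon and annulus markers Col12a1 was called higher than in the remaining cells, and the list of 6 summed to 416, 342 and 453 CPM. Of 8 measured cell cycle genes Mcm6 was called lower than in the remaining cells and none higher, beside 2.4% and 3.84% over all genes. Mcm6 lost its call with separate random sets of the UMIs. The list of 14 such genes had 37 and 45 UMIs in the 3-month control and mutant cells. That was 162 and 61.9 CPM, against 194 and 156 CPM in the remaining cells. The 12-16-month mutant cells had 168 UMIs of the list, of which 161 lay in 1 cell of 27351 UMIs that Scrublet did not call a doublet.

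The Zfp804b/Dab1 cells were not uniform. Scrublet-called cells left aside, 34 had more Dab1 than Zfp804b UMIs (7 and 25 in the 3-month control and mutant libraries, 0 and 2 in the 12-16-month ones), 37 had more Zfp804b (8, 25, 1 and 3 in this order) and 1 had equal counts. This split was made after values were seen, and only the 3-month libraries had enough cells for ratios. Of 3885 genes with at least 50 UMIs over the Zfp804b/Dab1 cells of the 4 libraries, 73 were called higher in the cells with more Dab1 (1.88%) and 50 lower (1.29%).

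Several secreted genes of the class were called higher with more Dab1, some of them on the counts of 1 control cell. Apod was at 675 and 1941 CPM in the cells with more Dab1 of the 3-month control and 3-month mutant libraries and at 122 and 317 CPM in those with more Zfp804b, a ratio of 5.52 (3.03 to 10.7) and 6.13 (5.05 to 7.49). Pthlh was at 494 and 342 against 209 and 72.9 CPM, a ratio of 2.36 (1.39 to 4.08) and 4.7 (3.09 to 7.35). A single control cell held 44 of 56 Apod and 17 of 41 Pthlh UMIs of this side. Without the cell with most UMIs of the gene, a removal that lowers any ratio by construction, the ratios became 1.38 and 5.03 for Apod and 1.61 and 3.71 for Pthlh, and neither was called. In the 12-16-month mutant library all 25 Pthlh UMIs fell in the 2 cells with more Dab1. Efemp1 was 2.29 and 5.04 times (4.59 in the mutant and just under 2 in the control library without its top cell), Sfrp5 3.02 and 4.15 times, Bmp3 2.42 and 2.07 times (2.01 and 1.88 without its top cell in each library, and not called) and Bmpr1b 3.3 and 2.31 times higher with Dab1. The leading genes of this side were Tmsb4x, which binds actin (20 [5.07 to 173] and 13.3 times), Negr1, a neural adhesion protein (27.6 [4.42 to 1145] and 6.19), Pou3f3 (7.83 [2.26 to 41.7] and 5.91), Ntng1, a netrin-like surface protein (2.76 [0.59 to 17.1] and 14.3), Sparcl1 (4.14 [0.741 to 42] and 9.08), Cipc, a circadian repressor (5 and 27 UMIs against 1 and 7), and Ephb2, an ephrin receptor (11 [1.48 to 490.2] and 2.6).

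Of 16 matrix genes 4 were called lower with more Dab1, beside 1.29% over all genes, and 12 were not called. Matn3 was at 48.2 and 52.2 CPM in the cells with more Dab1 against 811 and 372 CPM, 16.8 and 7.13 times lower. Col2a1 was at 3216 and 1354 against 7440.0 and 4172 CPM and Col9a1 at 253 and 333 against 759 and 895 CPM. Etl4 was 6.44 and 2.28 times and the hedgehog decoy Hhip 4.55 and 2.35 times lower with more Dab1. Single cells with more Zfp804b held 102 of 178 control and 104 of 495 mutant Etl4 UMIs of that side, and without them Etl4 was 3.33 and 1.85 times lower and not called. The leading genes of this side included, beside Matn3, C4b, a complement protein (16.7 [2.7 to 686] and 4.24 times lower), Dcn (at least 11.8 and 4.8), Plagl1, an imprinted zinc finger gene (12.3 [1.93 to 514] and 4.2), Cryab, a small heat shock protein (8.69 [1.29 to 371] and 5.59), Flrt2, a surface adhesion protein (13 [2.06 to 543] and 2.92), and Homer1, a scaffold of synapses (7.6 [1.86 to 66.9] and 4.46). Unc5c was not called, with ratios of 0.301 and 0.56. Lef1, with 1.8 and 2.86, was not called either. Runx2 had ratios of 0.592 and 1.25 in opposite directions. Median UMIs were 10714 and 12349 with more Dab1 and 12497 and 13988 with more Zfp804b, and median mitochondrial shares 2.89% and 2.2% against 1.6% and 1.57%, and their part in the split was not tested.

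**Figure D4:**
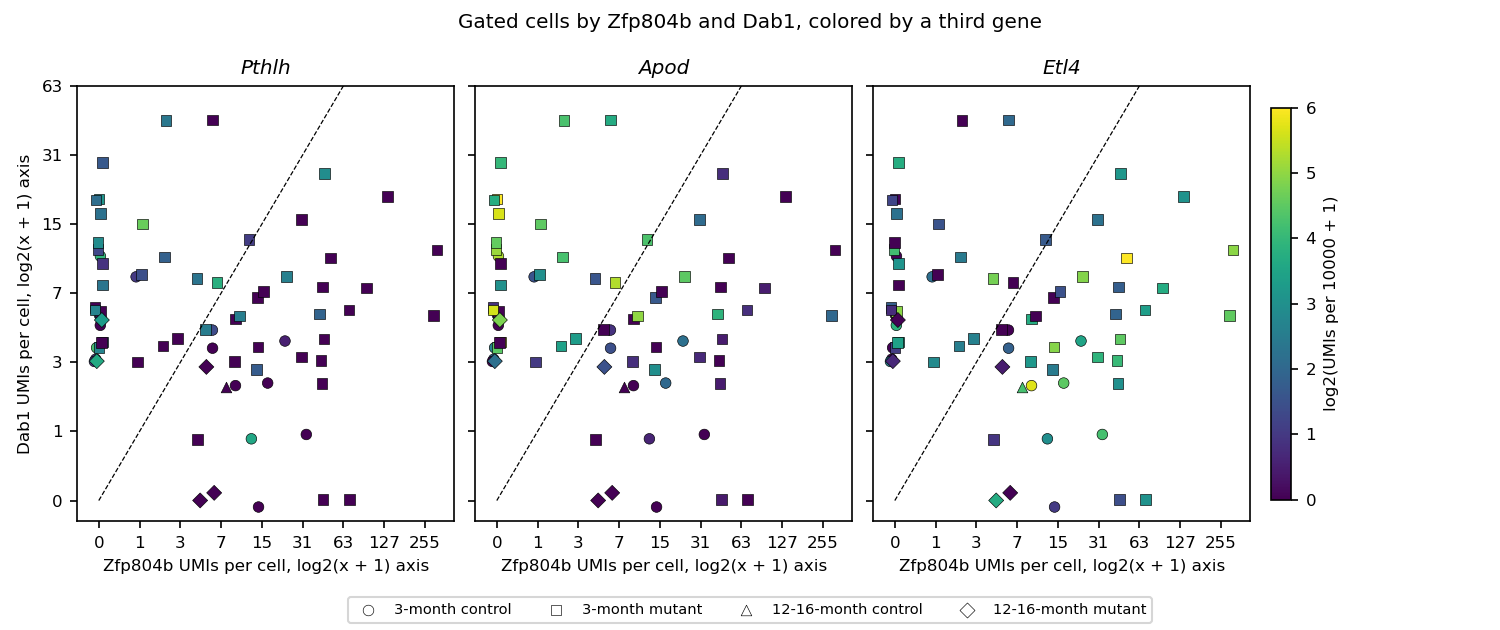
Zfp804b UMIs (horizontal) against Dab1 UMIs (vertical) in each Zfp804b/Dab1 cell that Scrublet did not call a doublet, on log2(x + 1) axes with points jittered and the dashed line marking equal counts. Color gives Pthlh, Apod and Etl4 as log2(UMIs per 10000 + 1), and the marker shape the library. Most Pthlh and Apod UMIs lie in cells above the line and most Etl4 UMIs in cells below it, and cells with and without each gene lie on both sides.

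At 3 months the Zfp804b/Dab1 cells of the 2 labels could be set side by side, as 52 mutant cells against 16 control cells, each from 1 library. The question of the design is what Nf1 loss in the lineage changes. Of 3885 genes with at least 50 UMIs over the Zfp804b/Dab1 cells of the 4 libraries, 412 were at least 2-fold higher in the mutant library (10.6%) and 216 lower (5.56%). There was no replicate to show the spread between libraries. Etl4, Ptch1 and Sfrp5 had ratios between the labels of 1.05 (interval 0.898 to 1.24), 1.19 (1.02 to 1.39) and 1.03 (0.787 to 1.36). A single control cell held 102 of 198 control Etl4 UMIs. Without the control cell with most UMIs of the gene the ratio was 1.99 (1.6 to 2.49) for Etl4 and 1.6 (1.15 to 2.26) for Sfrp5, and without such a cell in either library 1.7 (1.36 to 2.13) and 1.39 (1 to 1.97). Unc5c was lower, at 859 CPM in the mutant and 2623 CPM in the control library (ratio 0.328, interval 0.292 to 0.367), whereas in the remaining cells and in the Zfp804b/Dab1 hypertrophic-gate cells it was 1.85 and 1.66 times higher in the mutant library. A single control cell held 44.6% of the control UMIs of Unc5c, without which the ratio was 0.539 (0.471 to 0.618). Pthlh and Lef1 had ratios of 0.628 and 0.616 and Runx2 one of 1.57, none at 2-fold. Apod was at 1005 against 346 CPM (2.9 times higher, interval 2.3 to 3.71), and 44 of its 79 control UMIs were in 1 cell, without which the ratio was 6.22 (4.43 to 9).

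The extremes of this comparison rested on few UMIs or few cells. Grip1, a scaffold of glutamate receptors, Zfp462, a zinc finger protein, Prex2, an exchange factor for Rac, Prkd2, a protein kinase, and Cfap299, a cilia-associated protein, were 22.6 [3.93 to 905], 21.3 [3.7 to 855], 19.8 [3.42 to 793], 18.5 [3.2 to 744] and 15.7 [2.69 to 632] times higher in the mutant library, each over a single control UMI. Glul, glutamine synthetase, was at 180.1 against 13.1 CPM, 13.7 [4.59 to 67.3] times higher. On the low side Ndufa4l2, a mitochondrial protein that rises in low oxygen, was at 2.75 against 324 CPM, from 2 and 74 UMIs, 118 [31.5 to 991] times lower, and its ratio in the remaining cells was 0.897. Cilp, Gas1, Vcan and Abi3bp were 71, 55.7, 49.9 and 44.1 times lower, but the single called doublet among the control cells held 98.7%, 99%, 75.5% and 85.5% of their control UMIs, and without it no direction could be read for Gas1, from 6 mutant and 1 control UMI (ratio 1.66, interval 0.202 to 76.5), or Cilp, from 7 and 2 (0.971, 0.185 to 9.57). Without that doublet 1 further control cell each held 22 of the 23 control Vcan and 11 of the 12 control Abi3bp UMIs. Hdac9, a histone deacetylase, had no mutant UMI against 96.3 CPM, at least 23.4-fold lower, and 68.2% of the control UMIs were in 1 cell.

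Of 4 measured genes that the study names in osteoblasts, Tgfbr3, Zbtb16 and Mmp2 were called higher in the mutant library and Igf1r was not called, beside 10.6% called higher over all genes. The study names these genes from the same libraries, so no direction here is independent evidence, and none is set beside the study's. Tgfbr3, betaglycan, was at 2384 against 1073 CPM (2.22 times, and 1.62 times in the remaining cells). Mmp2, a gelatinase, was at 88 against 26.3 CPM, from 64 and 6 UMIs. Zbtb16, a zinc finger factor that glucocorticoids induce, was at 580.1 against 61.3 CPM (9.46 times, and 3.39 in the remaining cells), and Fkbp5, a glucocorticoid target too, at 408 against 43.8 CPM (9.32 times, and 8.64 in the remaining cells). Of 8 glucocorticoid targets these 2 were called higher, Dusp1 and Klf9 were called lower, with ratios of 0.48 and 0.35, and 4 were not called. Without called doublets Dusp1 had a ratio of 0.616 (0.506 to 0.754) and lost its call. Of 16 immediate early and stress genes 7 were called lower, beside 5.56% over all genes, and none higher, with a median log2 ratio of -0.94 beside 0.059 over all genes. The 7 were Atf3, Fos, Ier2, Ier3, Jund, Nr4a1 and Socs3. Without the control cell with most UMIs of the gene the ratios of Atf3, Ier2 and Nr4a1 were 0.853, 0.609 and 0.573, short of a call. Fos was at 2197 against 5079 CPM and Socs3 at 71.5 against 504 CPM, and the ratios of Fos and Socs3 in the remaining cells were 0.804 and 0.675. These genes also answer to digestion and handling, whose part was not tested.

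Of 14 TGF-beta and BMP genes 4 were called lower and Tgfbr3 higher, beside 5.56% and 10.6% over all genes. Id1, Id2 and Id3, targets of BMP signalling, and Grem1, a BMP antagonist, were the lower ones, with ratios of 0.426, 0.179, 0.218 and 0.424, and Grem1 lost its call without called doublets (0.535, interval 0.384 to 0.752). Without the control cell with most UMIs of the gene the ratio was 0.538 for Id1 and 0.524 for Grem1, which were then not called, 0.229 for Id2 and 0.362 for Id3. Bmp3, which this list leaves out, was 2.17 times higher. In the remaining cells the ratios of Id1, Id2, Id3 and Grem1 were 0.543, 0.591, 0.445 and 0.361, and Bmp3 had 1.19. Omd was 2.88 times, Gli3, a hedgehog effector, 3.37 times and Lama2 2.42 times higher. Kcnd2, a potassium channel, was 4.64 times higher, but 1 mutant cell held 64.9% of its mutant UMIs. Col2a1 was at 2863 against 5644 CPM, a ratio of 0.507 that was near those of the remaining cells (0.578) and of the Zfp804b/Dab1 hypertrophic-gate cells (0.55). Xist, which marks cells of females, was counted in 15 of 16 control and 52 of 52 mutant cells, and the Y-linked genes had 2 UMIs in all, both of Uty in the control library. No mutant and control comparison was made at 12-16 months, where the single control cell gave no ratio.

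**Figure D5:**
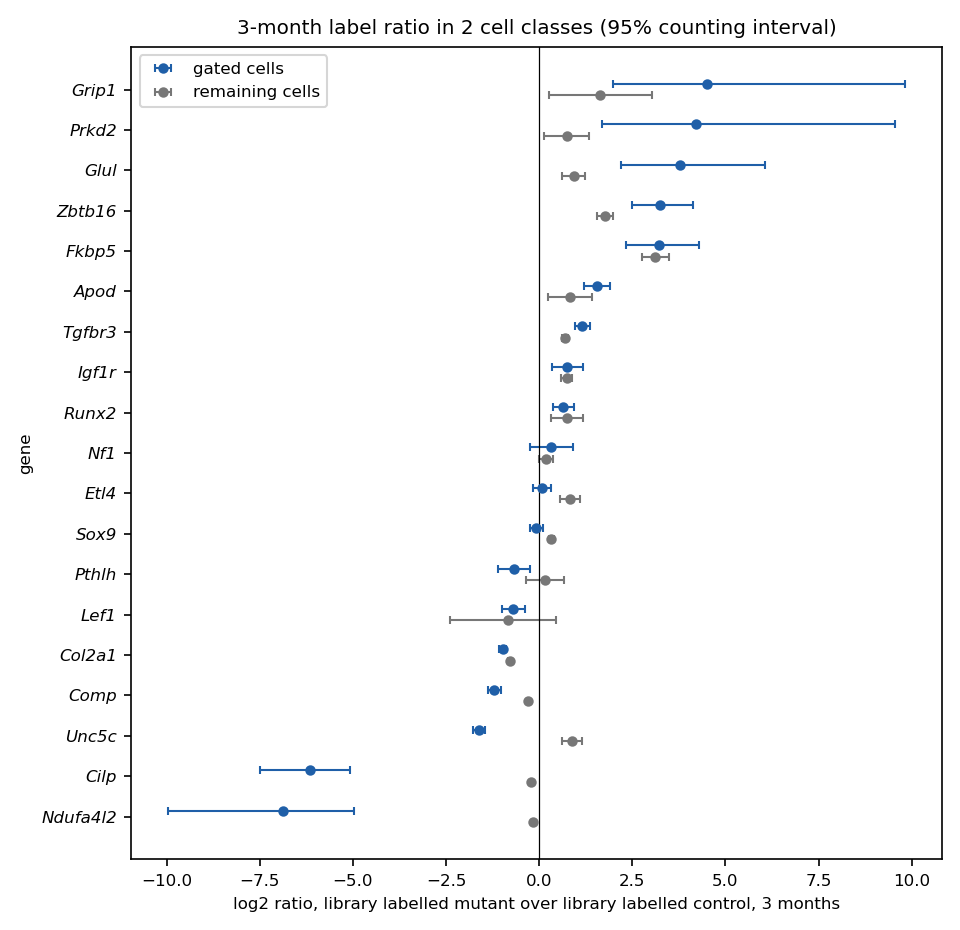
Log2 ratios of the 3-month mutant to the 3-month control library for 19 genes in the Zfp804b/Dab1 cells (gated, 52 against 16) and in the remaining cells (198 against 456), with 95% intervals of counting error only. Zbtb16 and Fkbp5 lie above 0 in both sets, and Unc5c lies below 0 in the Zfp804b/Dab1 cells and above 0 in the remaining cells.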

How the data were processed

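The authors deposited, for each of the 4 libraries, a filtered matrix of whole-number UMI counts per gene and cell, made with Cell Ranger 8.0.0 on mm10 with an added tdTomato sequence, over 32286 features. Whether intron reads were counted is not given in the sources used here. The study's ambient RNA correction (SoupX) was not applied to these counts. The matrices held 922, 542, 163 and 545 barcodes (3-month control, 3-month mutant, 12-16-month control, 12-16-month mutant), of which 717, 484, 135 and 421 passed the thresholds, with 9429264, 7287981, 2154537 and 4398951 UMIs.

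The members and the gene lists were chosen with earlier results of these data known. UMIs were summed by library and class and divided by the class total. Intervals are exact Poisson (levels), exact conditional binomial (ratios) and Clopper-Pearson (shares) at 95%, and cover counting error only. Genes needed 100 UMIs over the Sox9 and Acan cells, or 50 over the gated cells of the 4 libraries for the comparisons of labels and among members. A call needed at least a 2-fold ratio in every library with 3 or more cells in both classes and more than 3 UMIs in the higher class. The written plan had called genes over 4 libraries with 0.5 added to each count. After the data were seen, the library with 1 gated cell gave no ratio, a count of 0 was replaced by a bound of 3 counts, and mutant and control labels were compared at 3 months alone in place of both ages. Named genes were the called genes with the highest and lowest mean log2 ratio (15 and 10 against all other Sox9 and Acan cells, 8 and 8 in the other comparisons, 6 and 6 between labels), leaving out unnamed gene models and genes of mitochondria, ribosomal proteins, hemoglobin and the sex chromosomes, together with genes of the rule and of the lists. Kcnd2 and single values of list members were singled out after their values were seen. The comparison with the Zfp804b/Dab1 hypertrophic-gate cells, the split of the members by their Dab1 and Zfp804b UMIs and the levels without called doublets were also chosen then. Doublets were kept in the main values. Scrublet (in scanpy 1.11.5, expected rate 6%) called 19 of 1757 cells, 4 of them Zfp804b/Dab1 cells. TMM factors came from edgeR 4.0.16 in R 4.3.3, and other steps used Python 3.11.15 with numpy 2.4.6, scipy 1.17.1 and pandas 2.3.3. The calling step was tested on simulated data. Gene positions and spans came from the GENCODE annotation of mm10. UMIs of a 3′ method were not compared between genes. Some genes that the naming rule or the lists hold are not reported here. Other alternatives are given in the closing section. Within the Zfp804b/Dab1 cells, selected ratios, those between labels included, were also computed without the cell that held most UMIs of the gene, an alternative chosen after the values were seen.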

Additional observations from a re-analysis of the deposited data

Results flagged for a closer look

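Transcripts of the rule's label genes were also counted outside the cells with Sox9 and Acan, which no comparison above used. Of the 471 cells that passed the quality thresholds but not the Sox9 and Acan thresholds, 15 had at least 3 UMIs of Zfp804b and Dab1 together (4 and 1 in the 3-month control and mutant libraries, 5 in each 12-16-month library). Zfp804b gave 295 UMIs in 14 of them and Dab1 25 in 4. Runx2 was counted in 14 of the 15 (685 UMIs), Alpl in 12 (186), Col1a1 in 10 (790), Cxcl12 in 8 (127), Acan in 7 (165) and Unc5c in 4 (175), whereas Pthlh and Ptprc had no UMI and Sox9 had 1.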

How the results depend on the processing

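No paired analysis was possible between the labels because each group had 1 library, whereas cell classes were compared within each library throughout. With TMM factors 60 genes were called higher and 304 lower than in all other Sox9 and Acan cells, 40 and 119 against the hypertrophic-gate cells, and 256 and 464 against the remaining cells, since these factors lower every ratio. With 0.5 added to each count, a setting of the written plan that calls genes at 0 UMIs more readily, 235 genes were called lower than in the other cells and 117 lower than in the hypertrophic-gate cells. With rule and ratios on separate random sets of the UMIs 50 genes were called higher and 66 lower than in the hypertrophic-gate cells. Against the Zfp804b/Dab1 hypertrophic-gate cells 38 were higher and 50 lower, so the balances of 82 and 70 and of 79 and 50 both turned. In this setting 43.5% of the genes called higher than in the other cells and 58.6% of those called higher than in the remaining cells were called again. Comparison cells matched on total UMIs gave 181 genes higher and 161 lower than in the other cells, in place of 131 and 155. The mean of the CPM of single cells gave 180 and 173, so this balance turned in both settings. Leaving out 1 library at a time, which drops a condition for a call and takes some genes below the minimum of 100 UMIs, gave 130 to 410 genes higher and 155 to 435 lower against the other cells, 81 to 286 and 70 to 236 against the hypertrophic-gate cells, 79 to 298 and 50 to 201 against the Zfp804b/Dab1 hypertrophic-gate cells, and 405 to 940 and 254 to 574 against the remaining cells. Without the 3-month mutant library 264 genes were higher than in the other cells, and without the 12-16-month mutant library, which had 7 members, 410. Thinning to 5000 UMIs moved the 3-month mutant share to 20.8%, and the cause was not tested. A minimum of 20 UMIs in place of 50, which admits more genes, gave 976 higher and 597 lower genes between labels. Without called doublets the log2 ratios of Gas1, Cilp, Vcan and Abi3bp between labels became 0.73, -0.0432, -4.37 and -2.85, since 1 control cell held most of their UMIs. That of Gas1 then rested on 1 control UMI (ratio 1.66, interval 0.202 to 76.5) and that of Cilp on 2 (0.971, 0.185 to 9.57), so neither gives a direction. Those of Vcan and Abi3bp rested mostly on 1 further control cell each, with 22 of 23 and 11 of 12 control UMIs. Of 668 other values of 57 named genes between classes 615 moved by less than the SD between libraries. The 7 cells and 92697 UMIs of the 12-16-month mutant library limit the precision of every call against other cell classes, and the comparisons within the 3-month libraries did not use them.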
